A study of Rattus norvegicus with 2 samples.

Results

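The cell cycle genes are 41 genes that mark cells in the DNA replication (S) phase or in the G2 and mitotic (G2/M) phases, chosen by name from a fixed list of 13 S members and 28 G2/M members. All 41 names were present among the 23373 rat genes and the 25906 mouse genes of the deposited tables. They were used to describe which cell types were dividing in skeletal muscle of 1 Sprague-Dawley (SD) rat and 1 rat-mouse chimera, with 1 library each. Per the study's methods, the chimera was an SD rat into which, at the morula stage, mouse induced pluripotent stem cells (iPSCs) had been placed, and these iPSCs carried a gene-edited Dmd mdx allele and the Pax7-nGFP reporter, a nuclear green fluorescent protein under control of the satellite cell gene Pax7. The SD rat was the rat control, the chimeras were studied as adults, and the exact age of either animal is not given in the sources used here. In both animals, muscle from the whole body was digested with collagenase II, a viability dye was used to sort live cells, and transcripts were counted as unique molecular identifiers (UMIs) with a 10x Genomics 3′ kit, so that cells lost in the digestion or the sort are missing from every share given here.

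Progression through the cell cycle is driven by cyclins and the kinases they activate. Genes for the replication machinery are expressed from late G1 into S phase. Products of many genes for the mitotic spindle, the kinetochore and partners of the anaphase-promoting complex accumulate later and are cleared as the cell divides. In adult skeletal muscle, satellite cells are mostly quiescent and enter the cycle to form myoblasts, which leave it for good when they fuse, while myofibres themselves are post-mitotic.

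The chimera library held 13299 barcodes and 118872850 UMIs (median 7407 per barcode), and the SD rat library 10117 barcodes and 70957559 UMIs (median 5373). After filters on quality and predicted doublets, 8812 SD rat cells, 8241 chimera rat cells (at most 20% of UMIs on mouse genes) and 1849 chimera mouse cells (at least 80%) were analysed. A further 1656 chimera barcodes were mixed and entered no class. The libraries shared 43 barcode sequences, of which 33 were kept cells and 2 were strongly cycling as defined below. Cell classes were rebuilt by clustering each population without the cell cycle genes and are named "-like" after their markers. They comprise myogenic progenitors (MPs, the class of satellite cells and myoblasts), myocytes, endothelial cells (ECs), lymphatic ECs (LyECs), fibro-adipogenic progenitors (FAPs), tenocytes or fibroblasts, pericytes or mural cells, Schwann or glial cells, and classes of immune cells. Every difference between the animals below is a difference between 2 libraries without a replicate check, and all intervals are exact 95% intervals that cover counting error only. The chimera was counted on a combined rat and mouse reference and the SD rat on the rat reference alone. The part of the reference in these differences was not tested.

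Promoter sequences of the members are shown first, because the S and G2/M lists differed in the motifs they held. The cell cycle genes homology region (CHR), searched as TTTGAA, is known as a binding element of the MuvB complexes that restrict transcription to G2 and M. E2F factors bind elements searched here with the spelling TTCCCGC, with the spelling TTGGCGC, with the spelling TTCGCGC and with the spelling TTGCCGC, and CCAAT is the element of the factor NF-Y. All were searched on both strands in windows of 300 bases (250 before to 50 after the annotated start) from RefSeq, build GRCr8, which held 35 of the 41 members and 27457 genes in all. CHR was found in 18 of 24 G2/M members (75.0%), in 1 of 11 S members (9.09%, Mcm2) and in 4962 of all promoters (18.1%). E2F motifs were found in 7 of 11 S members (63.6%), in 5 of 24 G2/M members (20.8%) and in 2749 of all promoters (10.0%). CCAAT did not separate the lists, with 19 of 24 G2/M members (79.2%), 8 of 11 S members (72.7%) and 10363 of all promoters (37.7%). As spelled, TTGGCGC and TTCGCGC can overlap each other on opposite strands, and the reverse complement of TTGGCGC can overlap CCAAT. No entry was present for Ube2c, Ccna2, Aurkb, Tpx2, Mcm4 and Rrm2. The 150 bases before the start are printed for 4 abundant G2/M members with a CHR in this stretch, for 3 helicase members with an E2F motif, and for Pcna, the S member with the most UMIs, in which none of the E2F spellings was found. Capitals mark CHR matches in the first 4 and E2F matches in the others, read along the strand of the gene, so that a match on the opposite strand appears as its reverse complement. These are matches of letters and not measured binding, and the expression tables use another rat build (mRatBN7.2), with which no position was compared.
Top2a (chr10:84473094-84473243, minus strand): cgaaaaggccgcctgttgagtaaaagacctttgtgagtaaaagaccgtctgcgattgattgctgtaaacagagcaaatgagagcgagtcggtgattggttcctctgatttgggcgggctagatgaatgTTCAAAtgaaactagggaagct
Prc1 (chr1:143659331-143659480, plus strand): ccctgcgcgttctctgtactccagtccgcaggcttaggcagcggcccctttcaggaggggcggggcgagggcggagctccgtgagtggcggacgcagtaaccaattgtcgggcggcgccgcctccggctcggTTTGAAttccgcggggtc
Mki67 (chr1:199952594-199952743, minus strand): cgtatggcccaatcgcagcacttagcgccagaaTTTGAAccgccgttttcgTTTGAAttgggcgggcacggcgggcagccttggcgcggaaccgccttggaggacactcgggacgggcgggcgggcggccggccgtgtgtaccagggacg
Cdk1 (chr20:19265143-19265292, plus strand): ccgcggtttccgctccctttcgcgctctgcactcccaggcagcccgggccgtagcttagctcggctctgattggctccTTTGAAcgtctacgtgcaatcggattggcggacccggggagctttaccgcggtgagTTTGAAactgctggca
Mcm6 (chr13:42404353-42404502, minus strand): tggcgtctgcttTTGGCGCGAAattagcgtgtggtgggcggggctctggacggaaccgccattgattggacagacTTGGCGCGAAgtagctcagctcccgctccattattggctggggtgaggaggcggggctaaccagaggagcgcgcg
Mcm7 (chr12:22163179-22163328, minus strand): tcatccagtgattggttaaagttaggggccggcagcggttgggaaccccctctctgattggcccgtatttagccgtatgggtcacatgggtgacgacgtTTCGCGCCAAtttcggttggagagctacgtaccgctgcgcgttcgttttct
Mcm5 (chr19:13488663-13488812, plus strand): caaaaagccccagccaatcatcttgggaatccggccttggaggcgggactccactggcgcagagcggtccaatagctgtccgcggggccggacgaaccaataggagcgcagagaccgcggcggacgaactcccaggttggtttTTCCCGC
Pcna (chr3:139955821-139955970, minus strand): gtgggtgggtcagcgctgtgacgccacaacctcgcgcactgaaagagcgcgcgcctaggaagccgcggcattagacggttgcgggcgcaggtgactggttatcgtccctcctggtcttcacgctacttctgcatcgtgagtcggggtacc

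Most cells had UMIs of few G2/M members, and a small number had UMIs of many. Of the 8812 SD rat cells, 6837 had none of the 28 G2/M members, 1504 had 1 and 231 had 2, and the counts then fell to 3, 0 and 6 cells with 7, 8 and 9 members. Beyond this low point a second group appeared, with 16 cells at 24 members and 1 cell with all 28. The other populations had no such gap. In chimera rat cells the counts fell to 10, 9 and 11 cells with 7, 8 and 9 members and to 6 cells with 11 members, and then lay between 10 and 20 cells from 12 to 26 members. In chimera mouse cells they were 6, 4 and 4 cells with 7, 8 and 9 members and between 2 and 8 from 10 to 28 members, except for 10 cells with 19. Cells with at least 10 G2/M members are called strongly cycling here, a limit set after the distribution had been seen. They made up 130 SD rat cells (1.48%, 1.23 to 1.75), 250 chimera rat cells (3.03%, 2.67 to 3.43) and 101 chimera mouse cells (5.46%, 4.47 to 6.60), and 26, 59 and 37 cells lay near the limit with 5 to 9 members. Among the mixed barcodes, 38 were strongly cycling (2.29%, 1.63 to 3.14).

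**Figure D1:**
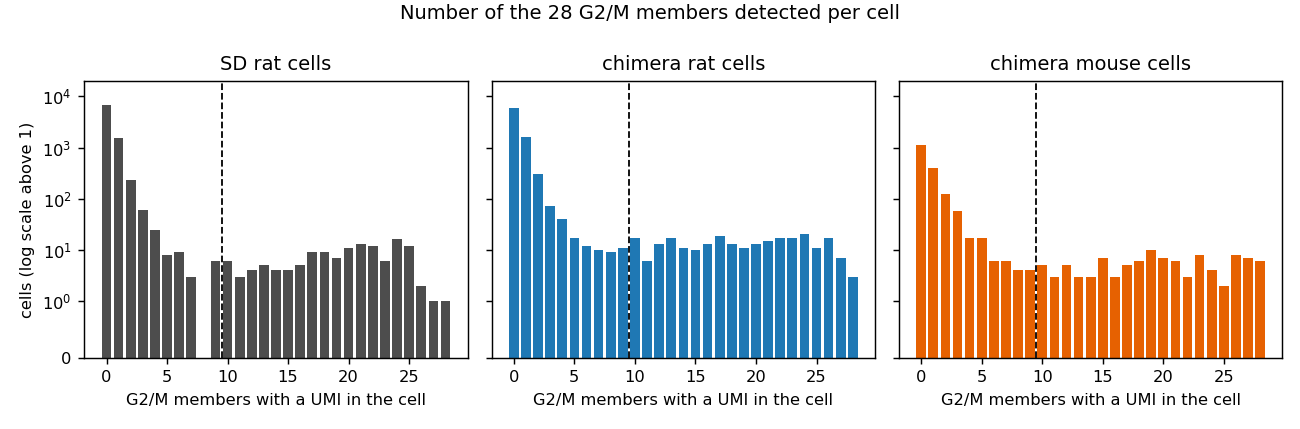
Number of cells (y axis, log scale above 1) by the number of the 28 G2/M members with a UMI in the cell (x axis), in SD rat, chimera rat and chimera mouse cells. The dashed line separates cells with at least 10 members (130, 250 and 101 cells) from the rest. SD rat cells were at 0 with 8 members, whereas chimera cells had cells with every number of members.

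Because deeper cells have UMIs of more genes, each cell was also thinned to 1000 UMIs and called dividing when at least 2 different S members or at least 2 different G2/M members remained. By this measure 209 of 8147 SD rat cells (2.57%), 346 of 8119 chimera rat cells (4.26%) and 155 of 1762 chimera mouse cells (8.80%) were dividing. A G2/M call was made in 136 SD rat cells (1.67%, 1.40 to 1.97), 244 chimera rat cells (3.01%, 2.64 to 3.40) and 108 chimera mouse cells (6.13%, 5.05 to 7.35), and these intervals did not overlap. The populations differed in class make-up. Of the analysed cells, 1614 of 8812 SD rat, 725 of 8241 chimera rat and 1151 of 1849 chimera mouse cells were EC-like. The part of make-up in these shares was not tested. An S call without a G2/M call was made in 73, 102 and 47 cells, and both calls in 26, 57 and 35 cells. Before thinning, Pcna had a UMI in 39.2% of SD rat cells that were not strongly cycling. An S call could thus rest on Pcna and 1 other S member. "Dividing" names the call, and how many cells with an S call alone were in S phase was not tested. Myocyte-like cells, which should lack these genes, served as background. Of these, 2 of 1423 SD rat cells had a G2/M call (0.141%) and 0 of 826 chimera rat cells did (3 counts of 826 would be 0.363%, the limit used here for a count of 0), at median depths of 3641 and 4875 UMIs.

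MP-like cells were the most frequently dividing named class in both rat populations, at shares whose intervals overlapped, in classes built without the cycle genes. A G2/M call was made in 66 of 413 SD rat MP-like cells (16%, 12.6 to 19.9) and in 71 of 453 chimera rat MP-like cells (15.7%, 12.4 to 19.4), at median depths of 6613 and 7524 UMIs before thinning. An S call was made in 19 and 32 of these cells (4.60% and 7.06%). With either call, 72 SD rat and 81 chimera rat MP-like cells were dividing (17.4% and 17.9%). When the cycle genes were kept in the clustering, 9 of 343 SD rat and 31 of 411 chimera rat MP-like cells were dividing (2.62% and 7.54%), with separate intervals. MP-like cells were then no longer first, since 5.02% and 6.25% of FAP-like cells were dividing (1.46% and 1.82% without those genes), 5.38% of SD rat T or NK-like cells and 8.44% of chimera rat EC-like cells. Within the class, nearly all calls lay in 1 cluster of each library. In the SD rat, 66 of 371 cells of the larger MP-like cluster had a G2/M call (17.8%), and 0 of 42 cells of the smaller one, led by the differentiation genes Myog and Cdkn1c, for which the limit of 3 counts is 7.14%. In the chimera the corresponding numbers were 69 of 364 (19.0%) and 2 of 89 (2.25%). MP-like cells held 63 of the 130 strongly cycling SD rat cells (48.5%), followed by FAP-like (25.4%) and myeloid-like cells (11.5%). Among chimera rat cells the strongly cycling cells were spread over more classes, with 26.0% MP-like, 17.6% myeloid-like, 16% FAP-like, 15.6% T or natural killer (NK)-like and 12.8% EC-like.

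EC-like cells were the named class in which the intervals for a G2/M call separated the libraries. A G2/M call was made in 12 of 1166 SD rat EC-like cells (1.03%, 0.533 to 1.79), in 39 of 660 chimera rat EC-like cells (5.91%, 4.24 to 7.99) and in 66 of 1072 chimera mouse EC-like cells (6.16%, 4.79 to 7.77). The SD rat interval did not overlap the others, whereas rat and mouse EC-like cells of the chimera overlapped. Without thinning, 3 of 1614 SD rat EC-like cells were strongly cycling (0.186%), against 32 of 725 chimera rat (4.41%) and 59 of 1151 chimera mouse EC-like cells (5.13%). Depth moved with this difference, since the median EC-like cell had 1940 UMIs in the SD rat, 3456 in chimera rat cells and 5612 in chimera mouse cells, and 448 of 1614 and 65 of 725 rat EC-like cells had under 1000 UMIs and were left out of the thinned shares. The part of depth in the difference was not tested beyond the thinning. The calls were not confined to 1 cluster: the chimera rat EC-like clusters had 26 of 458, 9 of 131 and 4 of 71 cells with a G2/M call, and the SD rat clusters 3 of 617, 4 of 368, 4 of 123 and 1 of 58. In mouse cells, 24 of the 66 EC-like cells with a G2/M call lay in a cluster of 29 cells led by Mecom, Cd93, Apln and Cenpf, in which 24 of 28 thinned cells had a call (85.7%).

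The clusters' names were checked on the strongly cycling cells themselves. By their own marker UMIs, 54 of the 63 strongly cycling SD rat MP-like cells (85.7%) and 51 of the 65 chimera rat ones (78.5%) were closest to MPs, against 79.7% and 70.4% of the other MP-like cells. By level, the 11 MP markers were lower in strongly cycling MP-like cells, at 742 counts per 1e6 UMIs (CPM) against 1496 in the SD rat and 794 against 1540 in the chimera. In the SD rat the LyEC markers (1213 against 313) and the EC markers (236 against 69.8) were higher in them, whereas the chimera had 251 against 302 and 24.6 against 48.3. By the summed endothelial markers (Pecam1, Cdh5 and others), strongly cycling EC-like cells had 4526 CPM in chimera rat cells, against 6352 in the other EC-like cells, and 6954 against 8002 in mouse cells. Of these cells, 27 of the 32 in chimera rat, 27 of the 59 in mouse and 1 of the 3 in SD rat cells were closest to ECs by their own markers (53.6% of the other mouse EC-like cells), and 20 of the 59 mouse cells were closest to mast cells and 7 to erythroid cells. Markers of other classes moved with them in both directions. In chimera rat EC-like cells, 10 FAP markers stood at 1067 CPM in strongly cycling against 581 in other cells, 11 tenocyte or fibroblast markers at 741 against 206, 9 pericyte or mural markers at 949 against 493, 9 myocyte markers at 1718 against 8915, and 9 erythroid markers at 378 against 17791. In mouse EC-like cells the erythroid markers were higher in strongly cycling cells (5092 against 1173), as were the mast cell markers (128 against 69.4), and the FAP markers lower (13.9 against 18.7). The part of these transcripts in the result was not tested.

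The other rat classes had a G2/M call less often than the MP-like cells. Pericyte or mural-like cells had a G2/M call in 3 of 311 SD rat cells (0.965%, 0.199 to 2.79) and in 13 of 260 chimera rat cells (5.00%, 2.69 to 8.40), with overlapping intervals. With either call, 3 (0.965%, 0.199 to 2.79) and 16 of them were dividing (6.15%, 3.56 to 9.80), intervals that did not overlap here and in 8 of 15 settings in all. Without thinning, the share of these cells was lower in the chimera, with 41 of 269 (15.2%) against 59 of 360 in the SD rat (16.4%). Their summed G2/M members had 163 CPM (144 to 183) in the SD rat, where 57.7% of these UMIs came from 1 strongly cycling cell, and 578 (534 to 624) in chimera rat cells, with 10 strongly cycling cells. T or NK-like cells had a call in 4 of 95 SD rat (4.21%), 33 of 700 chimera rat (4.71%) and 9 of 90 chimera mouse cells (10.0%, 4.68 to 18.1). Myeloid-like cells had 14 of 610 (2.30%) and 31 of 1196 (2.59%), and within them macrophage-like cells had 13 of 459 and 29 of 838, whereas neutrophil or monocyte-like cells had 1 of 151 and 2 of 358. FAP-like cells, the largest class, had 24 of 3223 (0.745%, 0.478 to 1.11) in the SD rat, 34 of 2641 (1.29%, 0.893 to 1.79) in chimera rat cells and 4 of 124 in mouse cells. Tenocyte or fibroblast-like cells had 5 of 525 and 10 of 594, and B cell-like cells had 2 of 69, 2 of 388 and, in mouse cells, 5 of 131. LyEC-like, Schwann or glial-like and mast cell-like cells had at most 3 cells with a call in any population. The intervals for a G2/M call in these classes overlapped between SD rat and chimera rat cells. Mouse clusters that stayed unnamed held 17 of the 101 strongly cycling mouse cells (16.8%). A cluster of 65 cells led by major histocompatibility complex class II genes had a G2/M call in 15 (23.1%, 13.5 to 35.2), and a cluster of 47 cells with raised MP markers in 3 of 46 thinned cells (6.52%, 1.37 to 17.9).

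**Figure D2:**
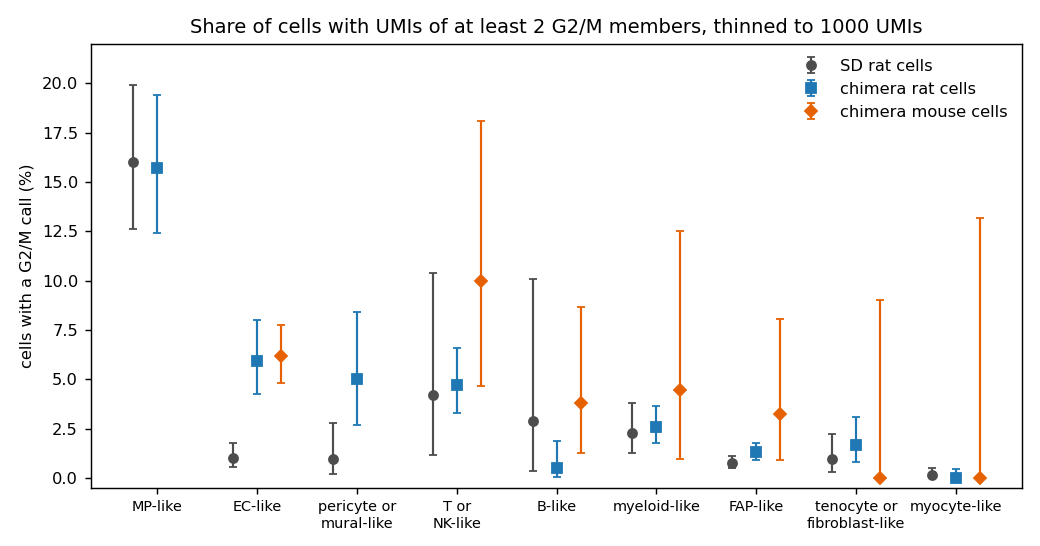
Share of cells with UMIs of at least 2 G2/M members after thinning to 1000 UMIs (y axis, %) for 9 classes in SD rat (circles), chimera rat (squares) and chimera mouse cells (diamonds), with exact 95% intervals. MP-like cells of both rat populations sit near 16%, and the SD rat EC-like value of 1.03% lies below the chimera values of 5.91% and 6.16%.

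The summed level of the G2/M members followed these shares. In MP-like cells the 28 G2/M members together had 2215 CPM in the SD rat (2165 to 2267) and 1870 in chimera rat cells (1828 to 1913), in EC-like cells 126 (116 to 136) and 602 (577 to 627), and in mouse EC-like cells 800 (781 to 820). Strongly cycling cells held 95.4% and 94.6% of the G2/M UMIs of MP-like cells, but 14.5% of those of SD rat EC-like cells and 81.5% of those of chimera rat EC-like cells. The CPM intervals treat UMIs as independent and leave out the spread between these few cells. Without the strongly cycling cells, the G2/M level was 109 CPM in SD rat and 132 in chimera rat EC-like cells. The S members were spread more evenly, from 150 CPM in chimera rat FAP-like to 456 in chimera rat T or NK-like cells among the rat classes of at least 50 cells other than myocytes, with 449 and 400 in MP-like and 318 and 419 in EC-like cells. Myocyte-like cells had the lowest levels, with 39.2 and 32.0 CPM for S and 13.4 and 17.8 for G2/M.

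**Figure D3:**
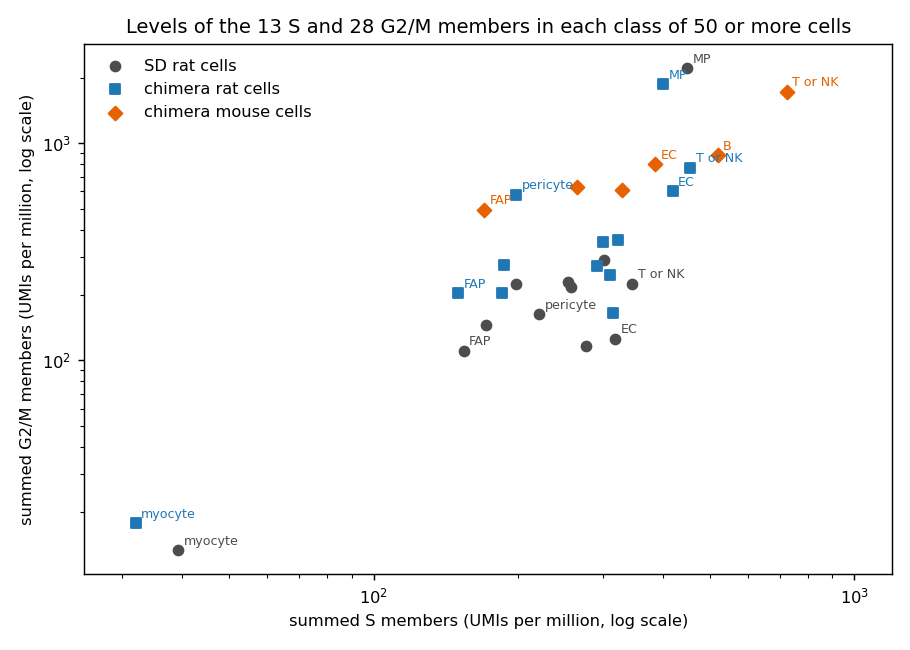
Summed CPM of the 13 S members (x axis) and the 28 G2/M members (y axis), both on log scales, in each class of at least 50 cells, coloured by population, with selected classes named beside their points. MP-like cells stand highest among the rat classes on the G2/M axis (2215 and 1870), myocyte-like cells lowest (13.4 and 17.8), and mouse T or NK-like cells reach 1728.

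Most UMIs of most G2/M members lay in the strongly cycling cells, which these same members had chosen. The members with the most UMIs in dividing cells of the 3 populations were Top2a (4853 UMIs), the topoisomerase that disentangles sister chromatids, Ube2c (3764), the ubiquitin-conjugating enzyme of the anaphase-promoting complex, Prc1 (3658), which bundles microtubules of the central spindle, Cenpf (3509), a kinetochore protein, Mki67 (3145), the proliferation antigen Ki-67 that coats mitotic chromosomes, and Nusap1 (2525), a spindle-associated protein. Top2a had a UMI in 93.8% of strongly cycling SD rat cells and in 0.968% of the other cells, in 85.2% and 1.21% of chimera rat cells, and in 94.1% and 6.24% of chimera mouse cells. These cells were chosen by the G2/M members, so the detection and the UMI shares of these members there are a description and no evidence of specificity. In SD rat cells 26 of the 28 members had at least 50% of their UMIs there, and Aurka and Bub1 (48.5%) did not. The share of a member's UMIs that lay in strongly cycling cells had a median of 81.2% over the 28 G2/M members in SD rat cells (45.9% for Aurka to 92.9% for Ube2c), 86.6% in chimera rat cells (54.6% to 95.8%) and 89.1% in chimera mouse cells (59.2% for Cenpa to 97.7% for Hmmr). The members found most often in other cells were Prc1 in the rat (3.43% of other SD rat cells and 4.02% of other chimera rat cells) and Cenpa in the mouse (11.7%). In myocyte-like cells each of the 6 members named above had a UMI in at most 0.481% of rat cells.

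UMIs of the S members were less confined to strongly cycling cells, and these members differed more among themselves. Because the G2/M members chose the strongly cycling cells, cells in S phase alone count among the other cells. The contrast between the lists was thus partly set by this choice and is a description. Those with the most UMIs in dividing cells were Pcna (2569 UMIs), the sliding clamp of DNA polymerases, Rrm2 (1191) and Rrm1 (1029), the subunits of ribonucleotide reductase, Mcm7 (748) and Mcm6 (723), subunits of the replicative helicase, and Tk1 (723), the thymidine kinase, with Tyms (721), the thymidylate synthase, next. Pcna had a UMI in 72.3% of strongly cycling SD rat cells but also in 39.2% of the other cells, with 79.2% and 42.6% in chimera rat and 69.3% and 36.9% in chimera mouse cells, and in 7.11%, 6.49% and 6.90% of myocyte-like cells. Of the Pcna UMIs, 9.39%, 16.5% and 30.1% lay in strongly cycling cells. Rrm2 stood at the other end, with 81.0%, 89.4% and 84.5% of its UMIs in strongly cycling cells and a UMI in 0.587%, 0.838% and 2.69% of other cells. Its partner Rrm1 had a UMI in 7.28% to 9.74% of other cells and 27.4%, 35.2% and 51.4% of its UMIs in strongly cycling cells. Tk1 resembled Rrm2 (76.2%, 67.8% and 78.9%), while the helicase genes Mcm6 (21.1%, 34.5% and 42.5%) and Mcm7 (24.9%, 35.2% and 52.6%) resembled Rrm1. The lowest value of all members was that of the helicase gene Mcm4 in SD rat cells (8.97%).

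**Figure D4:**
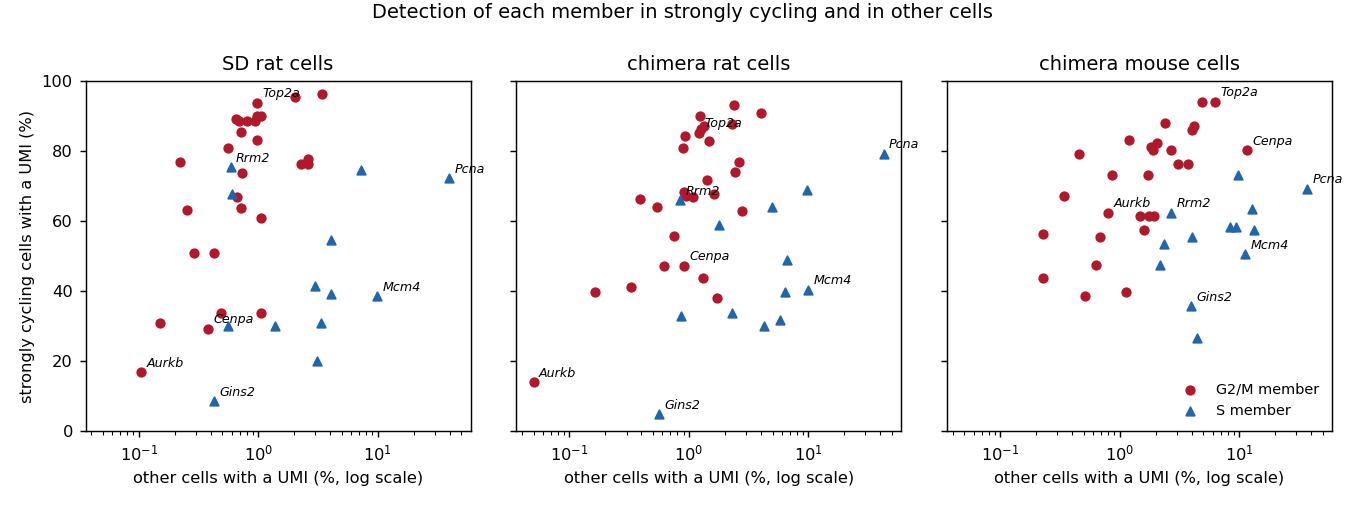
Share of strongly cycling cells (y axis, %) against share of other cells (x axis, %, log scale) with a UMI of each member, for G2/M members (circles) and S members (triangles) in each population. G2/M members lie to the upper left, S members further right, and Pcna farthest right at 39.2%, 42.6% and 36.9% of other cells. The strongly cycling cells were chosen by the G2/M members, which partly sets this separation.

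Several members had different levels on rat and mouse rows, in strongly cycling cells that also differed in class. MP-like cells made up 48.5% of these cells in the SD rat and 26.0% in chimera rat cells, whereas 58.4% of the mouse ones were EC-like. The part of class in the differences was not tested. Aurkb, a kinase of the chromosomal passenger complex, had 11.8 and 9.27 CPM in strongly cycling SD rat and chimera rat cells, and 74.1 in strongly cycling mouse cells. Gins2, a partner of the replicative helicase, had 6.12, 3.09 and 29.9, and Cenpa, the centromeric histone variant, 32.0, 59.4 and 247. The cyclin gene Ccnb2 had 68.7, 69.1 and 159. In the other direction, Bub1, a checkpoint kinase, had 108 and 96.7 in rat cells and 51.3 in mouse cells. The cyclin gene Ccnb1 had 147, 179 and 68.4, and Cenpf 547, 431 and 228. Within chimera rat cells, 2.23% of the UMIs of member pairs lay on the mouse gene (0.488% to 14.8% per member), with Aurkb (14.8%), Kif20a (14.2%) and Bub1b (11.5%) highest and 33 members under 5%. Within chimera mouse cells 1.42% lay on the rat gene (0 to 4.21%). No member reached 20% in either population. For comparison, the median chimera rat cell had 11.2% of all its UMIs on mouse genes, of which 43.5% of UMIs lay on the mouse 18S ribosomal gene Rn18s-rs5. Chimera rat EC-like cells had the highest median of the classes (14.3%), and 53 of 725 of them (7.31%) had at most 10%.

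A second rat row carries the name Cdc45 and did not behave like a cell cycle gene. Cdc45 is a partner of the replicative helicase, and its first row (ENSRNOG00000070046) had a UMI in 30% of strongly cycling and 0.553% of other SD rat cells. The second row (ENSRNOG00000050071) had a UMI in 10.0% of strongly cycling and 14.4% of other SD rat cells, and was found in 751 of 1614 EC-like (46.5%) and 100 of 110 LyEC-like cells (90.9%) but in 4.91% of MP-like and 5.33% of myocyte-like cells. In chimera rat cells it was found in 378 of 725 EC-like (52.1%) and 73 of 82 LyEC-like cells (89.0%). RefSeq lists Cdc45 next to Cldn5, a claudin of endothelial tight junctions whose mouse row had a UMI in 759 of 1151 mouse EC-like cells (65.9%). Whether the second row carries reads of that neighbour was not tested. It was left out of all calls and sums after these values had been seen. With both rows, 151 of 1166 SD rat EC-like cells (13%) and 101 of 660 chimera rat EC-like cells (15.3%) would be called dividing, and their intervals overlap.

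Strongly cycling cells were then divided by their S members. At least 5 of the 13 S members were found in 80 of 130 SD rat (61.5%, 52.6 to 69.9), 156 of 250 chimera rat (62.4%, 56.1 to 68.4) and 68 of 101 chimera mouse strongly cycling cells (67.3%, 57.3 to 76.3), so that most of these cells also held transcripts of several S members. Only 45 of 8682, 107 of 7991 and 67 of 1748 other cells had as many. These counts were not thinned, and the strongly cycling cells were deeper than the others. Their median depths were 14906 against 6131 UMIs in SD rat, 14620 against 7496 in chimera rat and 16860 against 6432 in chimera mouse cells. The part of depth in this contrast was not tested. The balance of the lists differed between classes. For each G2/M UMI, strongly cycling MP-like cells had 0.122 S UMIs in the SD rat and 0.125 in chimera rat cells, and chimera rat pericyte or mural-like cells had 0.0969. The ratio was 0.258 in chimera rat and 0.206 in mouse EC-like cells, 0.268 and 0.134 in SD rat and chimera rat FAP-like cells, 0.392 in chimera rat and 0.314 in mouse T or NK-like cells, and 0.470 in the 8 mouse B cell-like cells. Strongly cycling cells were selected by G2/M members, so that these ratios leave out cells in S phase alone. Among all dividing cells after thinning, the share with a G2/M call was 65.1% in SD rat, 70.5% in chimera rat and 69.7% in mouse cells.

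The members were compared between the libraries within each class, as CPM summed over all cells of the class, on the log2(value + 1) scale, with at least 2-fold counted as past the limit. A sum over a class does not separate more dividing cells from more transcripts per dividing cell. The intervals of its ratios treat UMIs as independent and leave out the spread between cells. In EC-like cells, 25 of the 38 members with at least 20 UMIs were higher in the chimera rat cells and 0 were lower, against 3.92% of 11085 genes higher and 4.58% lower, and the median log2 ratio of the members was 1.63, against -0.01 over all genes. Of the G2/M members 22 of 26 were past the limit, with a median of 1.94, and of the S members 3 of 12.

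Among the regulators of mitotic entry and exit in EC-like cells, Ube2c had 196 UMIs in chimera rat and 16 in SD rat cells (log2 ratio 3.59, ratio 15.4, 9.28 to 27.6), Cdk1, the mitotic kinase, 160 and 18 (3.18) and Cdc20, an activator of the anaphase-promoting complex, 73 and 14 (2.36). The cyclins Ccnb1 (1.87) and Ccna2 (1.55) were also past the limit, whereas Ccnb2 had 41 and 32 UMIs (0.62). Genes of the kinetochore, the chromosomal passenger complex and the spindle checkpoint followed, with log2 ratios of 2.99 for Birc5 (109 and 13 UMIs), 2.39 for Cdca8, 2.36 for Cenpe and for Cenpf, 2.00 for Bub1 and 1.85 for Cenpa. Mad2l1, with 18 and 3 UMIs, had a ratio of 7.57 (2.21 to 40.1). Genes of the spindle and of cytokinesis had log2 ratios of 2.67 for Prc1 (207 and 37 UMIs), 2.65 for Tpx2, 2.59 for Nusap1, 2.37 for Ect2, 2.31 for Hmmr, 1.72 for Aurka, 1.45 for Kif20a and 1.31 for Kif11. Top2a had 172 and 59 UMIs (1.80) and Mki67 146 and 62 (1.50). The G2/M members within the limit were Anln (0.97), Bub1b (0.92), Kif23 (0.80) and Ccnb2. Of the S members, Rrm2 had 88 and 10 UMIs (2.96), Mcm5 43 and 17 (1.43) and Tk1 35 and 16 (1.23), while Pcna, with 880 and 1042 UMIs, had a log2 ratio of 0.09 and a ratio of 1.07 (0.973 to 1.17). Aurkb (6 and 2 UMIs), Plk1 (18 and 1) and Gins2 (6 and 7) had too few UMIs to be counted.

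In MP-like cells, 0 of 40 members were past the limit in either direction, against 1.68% of genes higher and 3.04% lower. Their median log2 ratio was -0.25, against -0.01 over all genes. Top2a had 774 and 543 UMIs in chimera rat and SD rat MP-like cells (0.21), Ube2c 569 and 487 (-0.08) and Mki67 541 and 623 (-0.50, ratio 0.704, 0.626 to 0.791). The largest differences among counted members were those of the helicase gene Mcm2 (0.82), Tyms (0.69) and the spindle motor Kif11 (-0.63). Gins2, with 3 and 12 UMIs, was below the minimum.

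**Figure D5:**
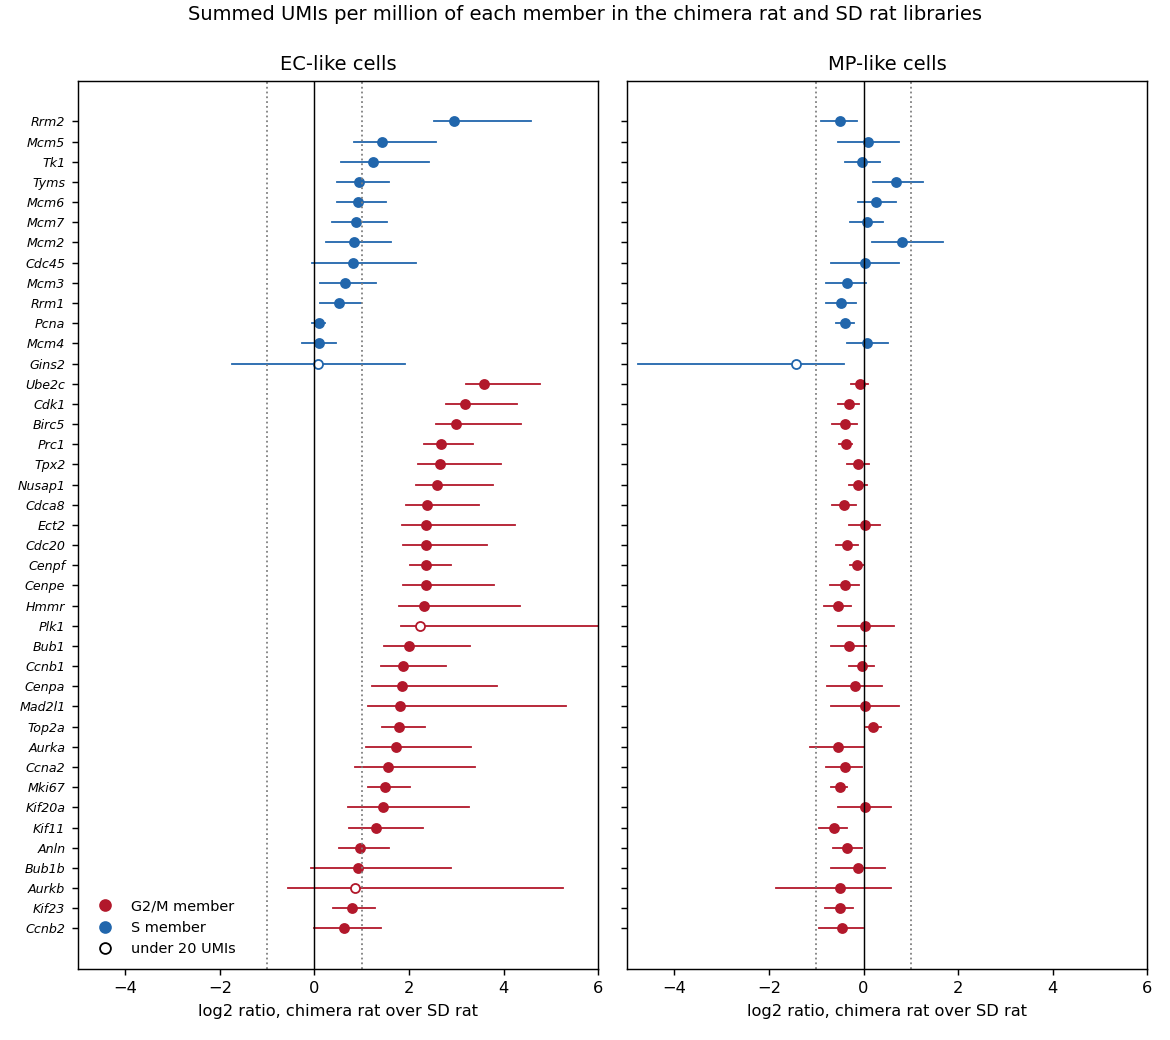
Log2 ratio of CPM, chimera rat over SD rat, for each member in EC-like and MP-like cells. Points are on the log2(value + 1) scale (open where under 20 UMIs), lines are exact 95% counting intervals of the ratio without the added 1, and dotted lines mark 2-fold. In EC-like cells 25 counted members lie past 2-fold to the right, and in MP-like cells 0.

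The remaining classes lay between these. In FAP-like cells 7 of 40 members were higher in the chimera and 0 lower, against 0.900% of genes higher and 1.29% lower. These were Ube2c (570 and 258 UMIs, 1.34), Cenpa (70 and 13, 1.32), Ccnb1 (1.25), Tpx2 (1.19), Cdc20 (1.15), Cdk1 (1.01) and Ect2 (1.00), all of the G2/M list, and the median of all members was 0.48 against 0.07 over all genes. In myeloid-like cells 4 of 38 members were higher, namely Tpx2 (1.76), Ccna2 (1.28), Rrm2 (1.15) and Top2a (1.12), and 0 lower, against 2.03% and 2.43%. In T or NK-like cells 19 of 39 were higher and 0 lower, against 7.36% and 13.2%, but the SD rat side rested on 97 cells of which 4 were strongly cycling. Top2a had 658 and 7 UMIs there (3.42), Ube2c 498 and 6 (3.22), Birc5 206 and 4 (2.48), Cdk1 234 and 5 (2.38), Ccnb1 243 and 6 (2.20), Cenpf 265 and 7 (2.12), Nusap1 221 and 9 (1.53), Cdca8 196 and 8 (1.52), Bub1 88 and 4 (1.30), Mcm7 267 and 15 (1.11) and Mcm3 205 and 12 (1.04). The other 8 had 1 to 3 UMIs in the SD rat. Their ratios were 19.5 for Tpx2 (3.44 to 774), 9.18 for Ccnb2 (1.60 to 367), 6.08 for Plk1 (1.04 to 245), 5.87 for Cdc20 (1.97 to 28.8), 5.21 for Hmmr (1.40 to 43.7), 4.51 for Mad2l1 (1.50 to 22.2) and 3.97 for both Ccna2 and Tyms (1.32 to 19.6). Mki67 was within the limit, with 300 and 29 UMIs (0.35).

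Genes of the cell cycle outside the 41 members were compared between dividing and other cells of the same class, from 6 lists of 185 names. The cells were called by the members, so these lists describe what else was expressed in them. At least 2-fold higher in dividing cells were 133 of 155 genes in SD rat MP-like cells (background 9.56% of all genes) and 132 of 155 in chimera rat MP-like cells (9.72%). In FAP-like cells these were 145 of 163 in the SD rat (8.95%) and 143 of 165 in the chimera (9.69%). In EC-like cells they were 19 of 79 in the SD rat (5.53%), 94 of 128 in chimera rat (5.71%) and 158 of 174 in mouse cells (8.76%). T or NK-like cells had 130 of 154 in chimera rat cells (8.78%), and myeloid-like cells 65 of 96 in the SD rat (10.1%) and 115 of 140 in the chimera (7.21%). SD rat EC-like cells thus had the lowest share of the 10 comparisons. Of the 39 dividing cells in that class, 27 had an S call alone.

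Across these 10 comparisons, the log2 ratio of dividing over other cells of Mybl2, a partner of the MuvB complex, ranged from 2.42 to 4.03 in the 6 comparisons where it was counted. E2f7, a repressor of the E2F family, ranged from 0.11 to 4.17, E2f8 from 1.43 to 4.84, Mybl1 from 1.57 to 2.58, Rbl1 from 0.72 to 2.38, Tfdp1 from 0.85 to 2.32, E2f2 from 0.69 to 3.72 and E2f3 from -0.12 to 1.09. Foxm1 (4.87) and E2f1 (1.73) were counted in 1 comparison each, while the retinoblastoma family genes Rb1 (-0.93 to 0.69) and Rbl2 (-0.82 to 0.77) were past 2-fold in 0 of 10. The E cyclins, which act at the entry to S phase, were higher in dividing cells (Ccne1 1.27 to 4.22, Ccne2 0.74 to 3.18), whereas the D cyclins, which link growth signals to the cycle, had medians of 0.34 (Ccnd1, -0.52 to 1.26), -0.18 (Ccnd2, -0.89 to 0.89) and 0.31 (Ccnd3, -0.66 to 1.18), with Ccnd1 and Ccnd3 each at least 2-fold higher in 1 of 10. CDK inhibitors did not move together. Cdkn2c was at least 2-fold higher in 9 of 10 comparisons (0.70 to 4.92), Cdkn2a in 4 of 4 (2.33 to 3.25) and Cdkn2d in 6 of 10 (-0.20 to 2.85), Cdkn1a and Cdkn1b in 0 of 10 (-0.28 to 0.78 and -0.55 to 0.63), and Cdkn2b (-1.05 to 0.35) and Cdkn1c (-2.85 to 0.80) were at least 2-fold lower in 1 of 4 and 4 of 10.

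In the replication list the highest medians included those of Pclaf, a Pcna-binding factor (4.91), the histone chaperone Asf1b (4.72), Uhrf1 (3.50), which maintains DNA methylation, and Fancd2 (3.37), of the Fanconi anaemia repair pathway. In the mitotic list they were Depdc1 (6.01), Racgap1 (5.48), a partner of Ect2 in cytokinesis, the mouse name Depdc1a (5.42, 1 comparison), and the kinetochore genes Ska1 (5.34) and Spc24 (5.22). In the list of chromatin and tubulin genes they were the microtubule destabiliser Stmn1 (3.97), Hmgb2 (3.39, 1 comparison), Tubb5 (2.67), the lamin gene Lmnb1 (2.44) and H2ax (2.40). Outside all lists, the genes with the largest lowest difference over the 9 rat comparisons included ENSRNOG00000066901 (lowest log2 ratio 2.83), the histone gene H4f3 (2.31), ENSRNOG00000068602 (2.13), Haus4, a subunit of the augmin complex of the spindle (2.13), Hirip3 (1.49), the nucleotide pyrophosphatase Dctpp1 (1.41) and the centrosomal Cep128 (1.30), among 6796 genes counted in every comparison.

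Of the 7 myogenic stage genes compared, Myog, Mymk and Cdkn1c were lower and Myod1 higher by CPM in strongly cycling than in other MP-like cells of both libraries. The other cells include nearly all of the smaller MP-like cluster, with 51 SD rat and 90 chimera rat cells, of which 0 and 2 were strongly cycling. The part of this cluster in the contrast was not tested. Myog, the transcription factor of myoblast differentiation, had 72.7 CPM in the 63 strongly cycling and 506 in the 365 other SD rat MP-like cells, and 76.3 and 534 in the 65 and 402 chimera rat cells. Mymk, the fusion factor myomaker, had 1.14 and 93.5 in the SD rat and 14.2 and 122 in chimera rat cells. The CDK inhibitor Cdkn1c had 390 and 2854, and 448 and 2596. It was found in more of the strongly cycling SD rat cells (68.3% against 39.7%) and in similar shares in the chimera (53.8% against 52.7%), and after thinning to 1000 UMIs in 20.6% against 22.6% and 21.9% against 32.6%. Myod1, expressed in activated myoblasts, had 190 against 101 and 126 against 92.3, whereas the satellite cell gene Pax7 had 63.6 against 107 and 37.5 against 55.4, and Myf5 60.2 against 108 and 105 against 112. Cdkn1a had 255 against 187 and 230 against 201. In the chimera the intervals of the ratio of strongly cycling to other cells included 1 for Pax7 (0.441 to 1.01), Myf5 (0.728 to 1.2) and Cdkn1a (0.967 to 1.36). Without thinning, Pax7 had a UMI in 50.8% of strongly cycling and 40.3% of other SD rat cells, at median depths of 11847 and 5878 UMIs. Thinned to 1000 UMIs, these shares were 4.76% and 12.6% in the SD rat, and 6.25% and 5.40% in the chimera. For Myf5 the thinned shares were 4.76% and 14.3% in the SD rat, and 15.6% and 10.0% in the chimera. For Myod1 they were 14.3% (6.75 to 25.4) and 8.29% (5.62 to 11.7) in the SD rat. In the chimera they were 12.5% (5.55 to 23.2) and 9.25% (6.57 to 12.6), and the Myod1 intervals overlapped in both libraries. Myog had a UMI in 7 of 63 strongly cycling (11.1%) and 68 of 365 other SD rat cells (18.6%), and in 10 of 65 (15.4%) and 118 of 402 (29.4%) in the chimera. After thinning to 1000 UMIs, it was found in 0 of 63 strongly cycling SD rat cells (limit of 3 counts 4.76% at this depth) and in 34 of 350 others (9.71%), and in 1 of 64 and 74 of 389 chimera rat cells (1.56% and 19.0%). Myog, Pax7, Myf5, Myod1 and Mymk were among the markers that named the class, but had no part in the choice of strongly cycling cells.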

How the data were processed

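The authors deposited raw UMI counts per gene and cell barcode from scRNA-seq, made with Cell Ranger 7.1.0 according to the submitters' processing notes, on a combined rat (mRatBN7.2) and mouse (GRCm39) reference for the chimera and on the rat reference for the SD rat. Barcodes with under 500 UMIs, under 200 genes or over 20% mitochondrial UMIs were removed, and doublets predicted by Scrublet at an expected rate of 8% were left out (428 chimera and 168 SD rat barcodes). Each population was clustered separately on its own species' genes, without members, other cell cycle genes and histone genes, with scanpy 1.11.5 and leidenalg 0.10.2 (2000 variable genes, 30 components, 15 neighbours, resolution 1). Clusters were named from marker lists, and the scoring of names was set after seeing clusters. A name needed at least 3 raised markers, and names are rebuilt rather than the study's. UMIs were thinned per cell with numpy 2.4.6, and intervals were computed with scipy 1.17.1. With 1 library per group no test was made. The fold count and the G2/M calls were tried on simulated data. Simulated cells had the profile of strongly cycling or of myocyte-like SD rat cells. The S call and the background of other classes were not tried in this way.

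Members and lists were chosen with earlier results of these data known. The genes named with values are the 6 G2/M and 6 S members with the most UMIs in dividing cells, the members past 2-fold between libraries in a class with at least 20 dividing cells, the regulators, D and E cyclins and CDK inhibitors with at least 20 UMIs, the 5 highest of each other list and the 10 highest outside the lists, of which the unnamed identifiers beyond 2 are not printed. The members named for their values on rat and mouse rows, and the second Cdc45 row, which was left out although its name matched, were chosen after their values were seen. Some genes of the other cell cycle lists are not reported here.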

Additional observations from a re-analysis of the deposited data

How the results depend on the processing

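No paired analysis was possible because each group had 1 library. Of 358 values under other settings, 259 moved by less than their counting interval or by less than 1.5 times, 99 moved further and 0 turned a called direction. The share of dividing EC-like cells was higher in chimera rat than in SD rat cells in 14 of 14 settings, with separate intervals in 13 (ratio 1.18 to 6.40). With species called at 90% and new clustering, EC-like cells were not compared, so this setting is not among the 14. MP-like shares were higher in the chimera in 6 of 15 settings, with separate intervals in 1. With species called at 90%, their intervals were also separate, but the chimera rat share was lower (0 of 68 against 72 of 413 cells). The cause of the moves below was not tested. In this paragraph, shares are of dividing cells in SD rat, chimera rat and chimera mouse cells in that order, unless said otherwise. With 3 different members required, shares were 1.37%, 2.39% and 5.16%, with G2/M calls in 91.1%, 92.8% and 89.0% of dividing cells, EC-like shares of 0.686%, 4.39% and 5.69%, and a chimera rat MP-like share of 13%. Thinned to 2000 UMIs, they were 4.94%, 7.66% and 15.4%, with G2/M calls in 45.4%, 52.4% and 56.5%, EC-like shares of 8.95%, 16.1% and 16.5%, and MP-like shares of 24% and 23.0%. Not thinned, they were 21.0%, 27.6% and 39.1%, with G2/M calls in 25.4%, 32.0% and 46.6%, EC-like shares of 14.0%, 26.6% and 36.6%, and MP-like shares of 41.6% and 43.3%. With both Cdc45 rows (chosen after seeing the data, like the limit of 10 members and the kept classes), the rat shares were 4.27% and 5.04%, with G2/M calls in 39.1% and 59.7%, and EC-like shares of 13% and 15.3%. With at least 10 G2/M members, EC-like shares were 0.186%, 4.41% and 5.13% and the chimera rat MP-like share 13.9%. Species called at 90% left 2876 chimera rat cells, with a share of 5.88% and, after new clustering, 0 of 68 MP-like cells, and with the classes kept, 23.1% of 52 EC-like cells. By the majority of UMIs, the mouse share was 6.94%. A second random draw gave 2.14% of SD rat EC-like cells. Clustered with the cycle genes, MP-like shares were 2.62% and 7.54% and FAP-like shares 5.02% and 6.25%, so that MP-like cells were no longer the most often dividing class. With classes from each cell's own markers, EC-like shares were 2.32% in the SD rat and 4.2% in mouse cells. With a pseudocount of 10 CPM, 14 of 38 members were past 2-fold in EC-like cells and 11 of 79 other cycle genes in dividing SD rat EC-like cells. With no minimum of UMIs, 1 member was lower in MP-like cells, and 81 of 171 other cycle genes were higher in dividing SD rat EC-like cells.

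The number of cells limits the shares of small classes. Depth limits the EC-like shares, since 448 of 1614 SD rat and 65 of 725 chimera rat cells had under 1000 UMIs and entered no thinned share. With 1 animal per group, no difference between the libraries can be told apart from a difference between animals, digestions or sorts. Nor can it be told apart from a difference between the combined reference of the chimera and the rat reference of the SD rat.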
